A study of Mus musculus with 12 samples.

Results

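The insulin-like growth factor (IGF) ligands, receptors and binding proteins were followed as 10 genes out of 55416 in the table, in cultured neonatal mouse cardiomyocytes. The genes were Igf1 and Igf2, the ligands, Igf1r and Igf2r, the receptors, and Igfbp2, Igfbp3, Igfbp4, Igfbp5, Igfbp6 and Igfbp7, the binding proteins. They were chosen by name within the gene family, with earlier results of these libraries known and with all 4 groups in view. No measured threshold was stated, so every level and test of these genes below is a description of these libraries and gives no independent support. All 10 had a single row and passed the filter on low values. Igfbp1, a binding protein made mainly by liver, was at 0 in all 12 libraries and is not among the 10.

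The 12 RNA-seq libraries, made from polyadenylated RNA, formed 4 groups of 3: phenylephrine (PE) with a GapmeR against lincRNA-p21 (PE knockdown), PE with a negative-control GapmeR (PE control), phosphate-buffered saline (PBS) with the lincRNA-p21 GapmeR (PBS knockdown), and PBS with the negative-control GapmeR (PBS control). PE, an agonist of alpha-1 adrenergic receptors used to make cardiomyocytes grow, was given for 24 hours. A GapmeR is a short antisense strand with which RNase H degrades the matching RNA, so genomic DNA was not altered and every group had received a GapmeR. Below, knockdown names the lincRNA-p21 GapmeR against the negative-control GapmeR. Loss of lincRNA-p21 and other effects of that GapmeR cannot be told apart. The labels give no mouse strain and do not say whether replicates came from separate cultures or litters. P-values therefore measure the spread between these libraries, which may be technical.

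The target, lincRNA-p21 (Trp53cor1), had 8.56, 9.97 and 8.93 normalised reads in the 3 PE knockdown libraries, against 56.0, 34.0 and 34.7 in the PE control libraries. It had 12.7, 22.6 and 10.1 normalised reads in PBS knockdown cells, against 59.8, 70.6 and 63.2 in PBS control cells. A normalised read is a read divided by the size factor of its library. Libraries held 21325485 to 22139681 reads in genes, and 3 of them (PBS control 2, PBS knockdown 2 and PE knockdown 1) had been set apart as distant from their groups in earlier results, so values were also computed without these 3 distant libraries. Their root-mean-square log2 distances from the group mean were 0.175, 0.248 and 0.19, against 0.102 to 0.181 for the other libraries. PBS knockdown 1, at 0.181, was kept. Leaving out libraries for their distance tends to lower the spread within groups by construction, so a call gained that way gives no support. All 6 cardiomyocyte markers were detected in every library, with summed levels of 418321 to 1022690 normalised reads. No marker of fibroblasts, endothelial cells, leukocytes or smooth muscle and pericytes was at 0 in any library either. A sum of markers is led by its most abundant genes, such as Myh6 for cardiomyocytes and Acta2 for smooth muscle and pericytes. It does not stand for every marker.

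As background, IGF1 and IGF2 are secreted growth factors that signal mainly through the receptor tyrosine kinase IGF1R, which activates the PI3K and AKT kinases and drives growth and survival of heart muscle. IGF2R, the cation-independent mannose 6-phosphate receptor, takes IGF2 to the lysosome and is not a growth signalling receptor. The binding proteins hold IGFs outside the cell, and proteases such as PAPP-A release the ligand by cutting them. IGFBP6 prefers IGF2, and IGFBP7 binds IGFs only weakly.

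The promoters of Igfbp5, Igfbp6 and Igfbp7 are shown because these 3 binding protein genes differed between PE and PBS with either GapmeR. Each is 300 bases of the RefSeq sequence of GRCm38.p6, which reach 250 bases upstream of the RefSeq start and 50 downstream, written 5′ to 3′ on the strand of the gene. Capitals mark matches, on either strand, to any of 5 short motifs. The searched letters were TATAAA for the TATA box and GGGCGG for the GC box. They were TGANTCA for the AP-1 motif, TGACGTCA for the cyclic AMP response element and TGTTTAC for the forkhead motif. The windows are chr1:72874816-72875115 on the minus strand for Igfbp5, chr15:102143936-102144235 on the plus strand for Igfbp6 and chr5:77407996-77408295 on the minus strand for Igfbp7.
Igfbp5: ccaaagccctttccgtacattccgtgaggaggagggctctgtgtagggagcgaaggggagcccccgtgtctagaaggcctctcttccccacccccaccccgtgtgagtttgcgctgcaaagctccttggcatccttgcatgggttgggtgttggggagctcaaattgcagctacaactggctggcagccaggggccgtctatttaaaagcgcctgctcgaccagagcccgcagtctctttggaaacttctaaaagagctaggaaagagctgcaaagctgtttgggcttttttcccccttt
Igfbp6: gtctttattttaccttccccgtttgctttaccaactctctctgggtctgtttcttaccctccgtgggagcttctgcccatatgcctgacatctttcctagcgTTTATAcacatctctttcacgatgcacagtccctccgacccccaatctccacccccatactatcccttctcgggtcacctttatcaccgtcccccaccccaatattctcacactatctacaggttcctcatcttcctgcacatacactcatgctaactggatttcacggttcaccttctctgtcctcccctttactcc
Igfbp7: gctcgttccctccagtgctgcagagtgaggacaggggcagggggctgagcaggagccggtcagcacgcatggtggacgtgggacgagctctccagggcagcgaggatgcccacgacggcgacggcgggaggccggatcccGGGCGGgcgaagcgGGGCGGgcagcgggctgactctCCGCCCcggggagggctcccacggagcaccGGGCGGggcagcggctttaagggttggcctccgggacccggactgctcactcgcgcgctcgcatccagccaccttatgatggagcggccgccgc

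The Igfbp7 window was 73.3% G and C with 33 CpG dinucleotides, and it held 4 matches to the GC box, at positions -110, -96 and -44 on the strand of the gene and -74 on the other. The Igfbp6 window was 49.7% G and C with 8 CpG dinucleotides, and its only match was a TATAAA on the other strand at position -148. The Igfbp5 window was 56.3% G and C with 10 CpG dinucleotides and held none of the 5 motifs, none of which overlapped another in these windows. Among 32851 RefSeq promoters of the same length, 35.7% held the GC box, 13.6% TATAAA, 7.81% the AP-1 motif, 1.79% the cyclic AMP response element and 3.65% the forkhead motif. A match is a description of letters and not of binding. Igfbp5 (chr1:72857932-72874884, minus strand) and Igfbp2 (chr1:72824503-72852474, plus strand) are neighbours on chromosome 1. Igfbp6 lies at chr15:102144362-102149511 on the plus strand and Igfbp7 at chr5:77349240-77408041 on the minus strand, all in the GRCm38 annotation of GENCODE. For Igfbp6 the RefSeq start used for the window differs from the GENCODE start, and the whole window lies upstream of the GENCODE gene, so the position of its match counts from the RefSeq start.

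Levels were compared between genes as normalised reads per kilobase of annotated exon. In PBS control cells the order was led by Igfbp7, a secreted protein also known as mac25, at 3325 ± 137 (SD, n = 3), and by Igf2r at 1531 ± 117. Igfbp3, the main carrier of IGFs in serum, followed at 483 ± 21.4, then Igfbp5 at 406 ± 17.7 and Igfbp4, an inhibitor of IGF action that PAPP-A cuts, at 252 ± 14.1. Igfbp6 at 209 ± 26.1 and Igf1r at 183 ± 5.36 overlapped between libraries, as did Igfbp2 at 107 ± 4.35 and Igf2 at 106 ± 18.9. Igf1 was the lowest at 42.5 ± 2.52. Dividing by the longest transcript in place of all exons changes the levels of single genes but left Igfbp7, Igf2r and Igfbp3 in the first 3 places in every group.

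**Figure D1:**
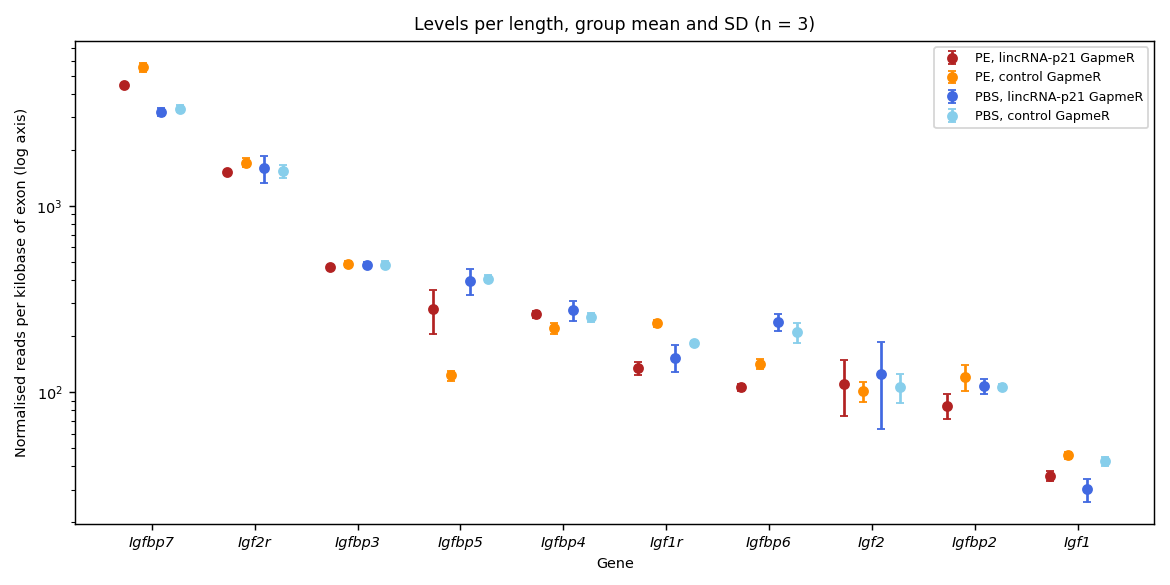
Levels of the 10 IGF genes per kilobase of annotated exon (log axis) as the mean and SD of 3 libraries in each of the 4 groups. Igfbp7 stood at 4456 in PE knockdown, 5544 in PE control, 3198 in PBS knockdown and 3325 in PBS control cells, and Igfbp5 was lowest in PE control cells, at 123.

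The first 3 places were the same in the other groups, and lower places changed. Igfbp5 was 4th of the 10 in PE knockdown cells (280 ± 75.6), 7th in PE control cells (123 ± 7.70), 4th in PBS knockdown cells (395 ± 63.2) and 4th in PBS control cells. Per kilobase of the longest transcript it was 5th in PE knockdown and 8th in PE control cells. Igf1r was 6th in PE knockdown cells at 134 (128 to 147 over libraries), against 4th in PE control cells at 234 (226 to 245). Igfbp6 was 8th in PE knockdown and 6th in PE control cells, and Igf2 was 7th in PE knockdown and 9th in PE control cells. Of the summed level of the 6 binding proteins per kilobase, Igfbp7 made up 78.8% ± 1.20 in PE knockdown, 83.5% ± 0.377 in PE control, 68.0% ± 0.972 in PBS knockdown and 69.5% ± 0.196 in PBS control cells (SD, n = 3 each). The share of Igfbp5 was 4.94% ± 1.27 in PE knockdown and 1.85% ± 0.0281 in PE control cells, and 8.41% ± 1.22 in PBS knockdown and 8.48% ± 0.252 in PBS control cells.

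The first question was how PE changed these genes in control cells. Of the 10 genes, 2 were higher (Igfbp7 and Igf1r) and 2 lower (Igfbp5 and Igfbp6) in PE control than in PBS control cells at an adjusted p below 0.05 (limma on log2 of the value plus 1, Benjamini-Hochberg over all 21799 genes tested). Over the whole table, some 25.4% of genes were called, 12.6% higher and 12.8% lower. The median log2 change was 0.06 over the 10 genes and 0.00 over all genes tested. When every library was rescaled to the same total, the median change of the 12113 genes with a mean of at least 50 moved by a similar amount in both PE comparisons, to -0.15 with the control GapmeR and -0.15 with the lincRNA-p21 GapmeR, and calls then split into 7.71% higher and 19.7% lower with the control GapmeR. Fold changes here are on the scale of the deposited size factors unless stated otherwise.

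Igfbp5, a binding protein that attaches to extracellular matrix and has actions independent of IGFs, had 761, 685 and 770 normalised reads in PE control libraries, against 2365, 2558 and 2384 in PBS control libraries. All PE libraries were below all PBS libraries. The log2 change was -1.72 ± 0.15 (SE), a ratio of 0.303 between the group means, with an adjusted p of 3.6e-08 (limma). The call held under every alternative tried, and leaving out single libraries gave -1.75 to -1.67.

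Igfbp6 had 164, 162 and 147 normalised reads in PE control libraries, against 205, 263 and 230 in PBS control libraries. The groups did not overlap, and the log2 change was -0.56 ± 0.14 with an adjusted p of 0.0045 (limma). Igfbp7 moved the other way, with 6964, 6266 and 6878 normalised reads in PE control libraries, against 3837, 4162 and 4060 in PBS control libraries. The log2 change of Igfbp7 was 0.74 ± 0.09, a ratio of 1.67 between the group means, with an adjusted p of 3.6e-06 (limma). Exons of Igfbp7 overlap those of Polr2b on the opposite strand, and the sources used here do not say whether counting used strand. Polr2b, a subunit of RNA polymerase II, had a mean of 1889 ± 124 normalised reads in PE control and 1777 ± 76.7 in PBS control cells, and its log2 change was 0.09 ± 0.10 (adjusted p = 0.58, limma).

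Igf1r had 3791, 4114 and 3873 normalised reads in PE control libraries, against 3014, 3177 and 3029 in PBS control libraries. The groups did not overlap, and the log2 change was 0.35 ± 0.11 with an adjusted p of 0.022 (limma). This call was the least stable of the 4: the change was 0.19 with an adjusted p of 0.20 after rescaling to the same total. It was also lost without PBS control library 1 (0.34, adjusted p = 0.074) or 3 (0.34, adjusted p = 0.072) and without PE control library 2 (0.32, adjusted p = 0.094) or 3 (0.36, adjusted p = 0.052). The other 6 genes did not pass the threshold, with log2 changes between -0.20 for Igfbp4 and 0.17 for Igfbp2. Igfbp4 passed, lower in PE, after rescaling to the same total (-0.35, adjusted p = 0.016) and without the 3 distant libraries (-0.22, adjusted p = 0.034). Igf2r had 16047, 16656 and 14948 normalised reads in PE control libraries, against 14840, 12994 and 14914 in PBS control libraries, a change of 0.16 ± 0.12 (95% interval -0.09 to 0.40).

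Markers of other cell types moved in the same comparison, where 12.6% of all genes were called higher and 12.8% lower. Summed endothelial markers were 5192 to 5718 normalised reads in PE control libraries, against 1726 to 1936 in PBS control libraries, and all 6 markers were called higher. Summed fibroblast markers were 27927 to 31509 in PE control libraries, against 43367 to 46844 in PBS control libraries, with 6 of 7 called lower. Of 7 leukocyte markers 4 were called higher (summed 1852 to 2135 in PE control, 1475 to 2139 in PBS control libraries), and of 6 smooth muscle and pericyte markers 2 were called higher and 3 lower (summed 53371 to 55180 in PE control, 24766 to 28755 in PBS control libraries). The last sum is led by Acta2, with means of 46552 in PE control and 20529 in PBS control cells. Acta2 and Cspg4 were called higher, while Myh11, Rgs5 and Pdgfrb were called lower. Summed cardiomyocyte markers were 739854 to 1022690 in PE control libraries, against 512681 to 619510 in PBS control libraries, with 2 of 6 called higher and 1 lower. The part of these cells in the changes of the IGF genes was not tested, and in bulk RNA fewer cells of a type and less RNA per cell cannot be told apart.

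**Figure D2:**
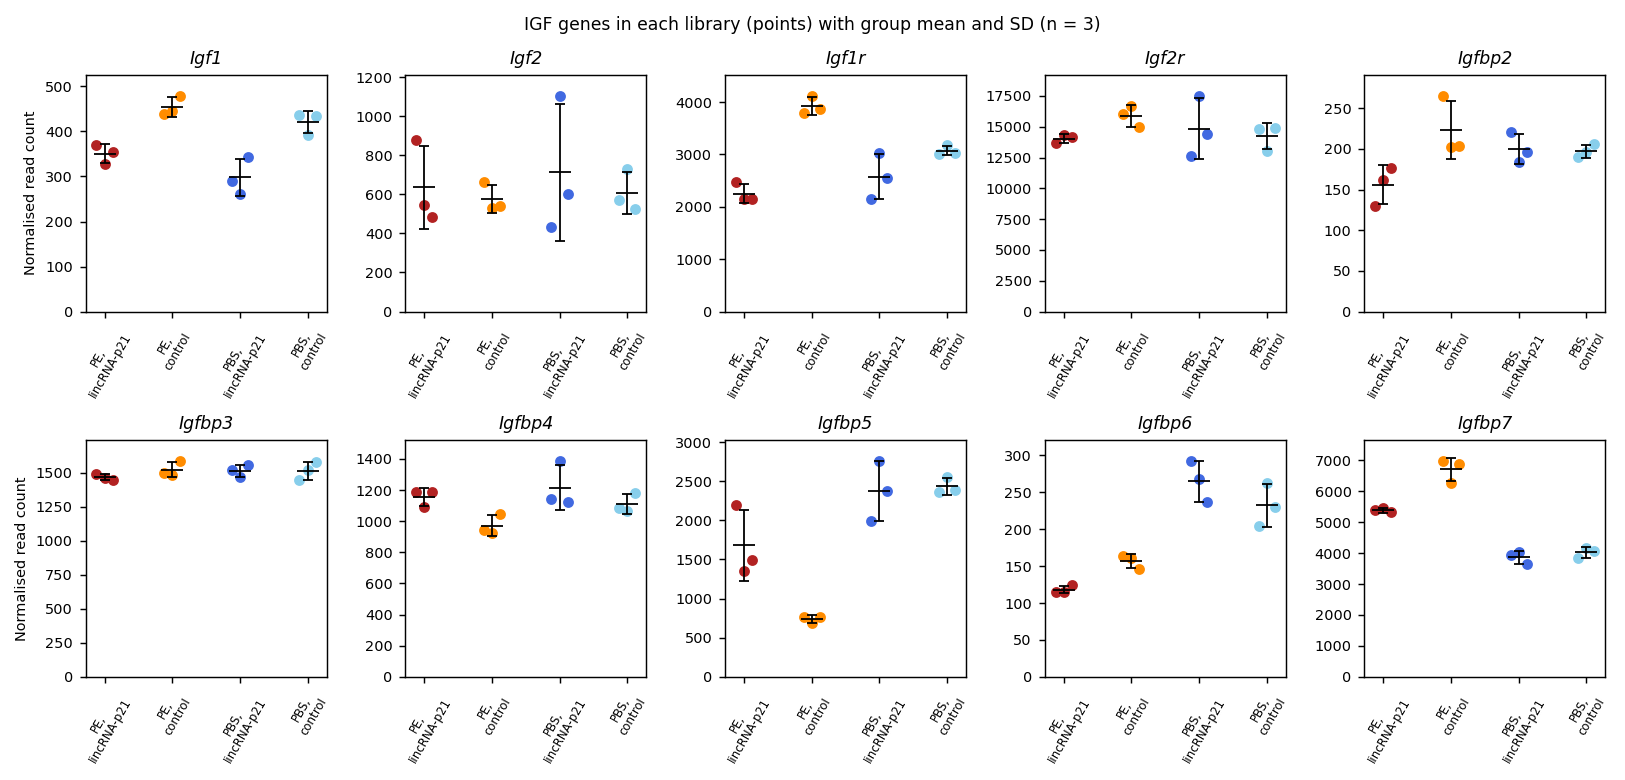
Normalised reads of the 10 IGF genes in each of the 12 libraries, with the mean and SD of each group in black and axes starting at 0. Igfbp5 had 685 to 770 normalised reads in PE control libraries, below all 9 other libraries.

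With the lincRNA-p21 GapmeR, PE again lowered Igfbp6 and Igfbp5 and raised Igfbp7. These were the 3 of 10 genes called, 1 higher and 2 lower, where 27.4% of all genes were called, 13.4% higher and 14.0% lower. After rescaling to the same total these shares were 9.04% and 20.4%, and 5 of the 10 genes were called. The median log2 change was -0.09 over the 10 genes and 0.00 over all genes tested. The comparisons with PBS in the 2 GapmeR groups share no library, but their tests share 1 estimate of the spread per gene from all 12 libraries.

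Igfbp6 had 116, 115 and 124 normalised reads in PE knockdown libraries, against 292, 268 and 237 in PBS knockdown libraries. It changed by -1.16 ± 0.14 on the log2 scale, a ratio of 0.445 between group means, with an adjusted p of 2.6e-06 (limma). Igfbp7 had 5383, 5466 and 5314 normalised reads in PE knockdown libraries, against 3944, 4020 and 3634 in PBS knockdown libraries. Its log2 change was 0.48 ± 0.09 with an adjusted p of 3.9e-04 (limma), and neither gene's groups overlapped. Both calls held under every alternative tried.

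Igfbp5 had 2198, 1348 and 1495 normalised reads in PE knockdown libraries, against 1995, 2754 and 2375 in PBS knockdown libraries. Here the groups overlapped: PE knockdown library 1 lay above PBS knockdown library 1. Its log2 change of -0.52 ± 0.15 had an adjusted p of 0.011 (limma). The call was lost without PE knockdown library 2 (-0.38, adjusted p = 0.084) or 3 (-0.45, adjusted p = 0.054), and with the fit on these 6 libraries alone (adjusted p = 0.051).

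Igf1r did not pass in this comparison. It had 2464, 2142 and 2143 normalised reads in PE knockdown libraries, against 2158, 3019 and 2549 in PBS knockdown libraries, a log2 change of -0.18 ± 0.11 (adjusted p = 0.24, limma). Rescaling to the same total brought Igf1r (-0.33, adjusted p = 0.026) and Igfbp2 (-0.51, adjusted p = 0.018) past the threshold, both lower in PE.

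All 7 fibroblast markers were called lower in this comparison (summed 22344 to 25321 normalised reads in PE knockdown, 37671 to 49699 in PBS knockdown libraries) and all 6 endothelial markers higher (4320 to 5295 in PE knockdown, 1673 to 1765 in PBS knockdown libraries). Of 7 leukocyte markers 5 were called higher, and of 6 smooth muscle and pericyte markers 2 were called higher and 4 lower. Over all genes tested, 13.4% were called higher and 14.0% lower. Summed cardiomyocyte markers were 590289 to 703297 in PE knockdown libraries, against 418321 to 458751 in PBS knockdown libraries, with 2 of 6 called higher and 1 lower. Their part in the changes of the binding proteins was not tested.

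The next question was how lincRNA-p21 knockdown changed these genes under PE. Of the 10 genes, 5 were called, 1 higher (Igfbp5) and 4 lower (Igf1r, Igfbp2, Igfbp7 and Igf1), where 11.7% of all genes were called, 4.57% higher and 7.14% lower. The calls of Igf1r and Igfbp5 held under every alternative tried, while those of Igf1, Igfbp2 and Igfbp7 did not. After rescaling to the same total, 6.89% of genes were called higher and 5.04% lower, the median of the 12113 better-detected genes was 0.08 in place of 0.00, and 3 of the 10 genes were called. The median log2 change was -0.24 over the 10 genes and 0.01 over all genes tested.

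Igfbp5 was higher in PE knockdown cells, with the 2198, 1348 and 1495 normalised reads given above, against 761, 685 and 770 in PE control cells. Every knockdown library was above every control library, and PE knockdown library 1 stood above the other two. The log2 change was 1.15 ± 0.15, a ratio of 2.27 between group means, with an adjusted p of 1.8e-05 (limma). Leaving out single libraries gave 0.94 to 1.30, the lowest without PE knockdown library 1.

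Igf1r was lower in PE knockdown cells: 2464, 2142 and 2143 normalised reads, against 3791, 4114 and 3873 in PE control cells. The groups were far apart, with a log2 change of -0.81 ± 0.11, a ratio of 0.573 between group means, with an adjusted p of 4.2e-05 (limma). Igf1r is the longest of the 10 genes, spanning 280842 bases (chr7:67952827-68233668, plus strand). Among 619 genes with spans of at least 200 kb and a mean of at least 50 normalised reads, the median log2 change in this comparison was -0.55 and 65.3% were called lower, where the median of all 12113 genes with that mean was 0.00. Whether the change of Igf1r goes with its length was not tested.

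Igfbp2, which binds both ligands, had 130, 161 and 177 normalised reads in PE knockdown libraries, against 265, 203 and 203 in PE control libraries. The log2 change was -0.52 ± 0.15 with an adjusted p of 0.027 (limma). The groups did not overlap, but the call was lost without PE control library 1 (-0.39, adjusted p = 0.16), without PE knockdown library 1 (-0.39, adjusted p = 0.12) or 2 (-0.55, adjusted p = 0.061), and after rescaling (-0.43, adjusted p = 0.080). Igf1 had 369, 328 and 355 normalised reads in PE knockdown libraries, against 438, 445 and 479 in PE control libraries. Its log2 change of -0.37 ± 0.12 had an adjusted p of 0.045 (limma), which was above 0.05 without any filter on low values (0.056), after rescaling (0.15) and in 8 of 12 fits that left out 1 library, whose changes ran from -0.41 to -0.32.

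Igfbp7 had 5383, 5466 and 5314 normalised reads in PE knockdown libraries, against 6964, 6266 and 6878 in PE control libraries, and the groups did not overlap. Igfbp7 changed by -0.31 ± 0.09 on the log2 scale with an adjusted p of 0.025 (limma). That call was lost without PE control library 1 (-0.29, adjusted p = 0.10) or 3 (-0.29, adjusted p = 0.091), without PE knockdown library 2 (-0.32, adjusted p = 0.074) or 3 (-0.30, adjusted p = 0.091), and after rescaling (-0.23, adjusted p = 0.11). It was also narrowly lost without a filter on low values (adjusted p = 0.05 as rounded) and with a replicate block (adjusted p = 0.051). The overlapping gene Polr2b had 1954 ± 69.7 normalised reads in PE knockdown and 1889 ± 124 in PE control cells, and its log2 change was 0.05 ± 0.10.

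The remaining 5 genes did not pass in this comparison. Igfbp6 had 116, 115 and 124 normalised reads in PE knockdown libraries, against 164, 162 and 147 in PE control libraries, a change of -0.41 ± 0.14 (adjusted p = 0.057, limma). Igfbp4 had 1186, 1091 and 1189 normalised reads in PE knockdown libraries, against 940, 923 and 1049 in PE control libraries, a change of 0.25 ± 0.10 (adjusted p = 0.13, limma). The libraries of both genes separated by group without passing the threshold, and each passed under some alternatives. Igf2r changed by -0.18 ± 0.12, Igfbp3 by -0.05 ± 0.09 and Igf2 by 0.10 ± 0.25.

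**Figure D3:**
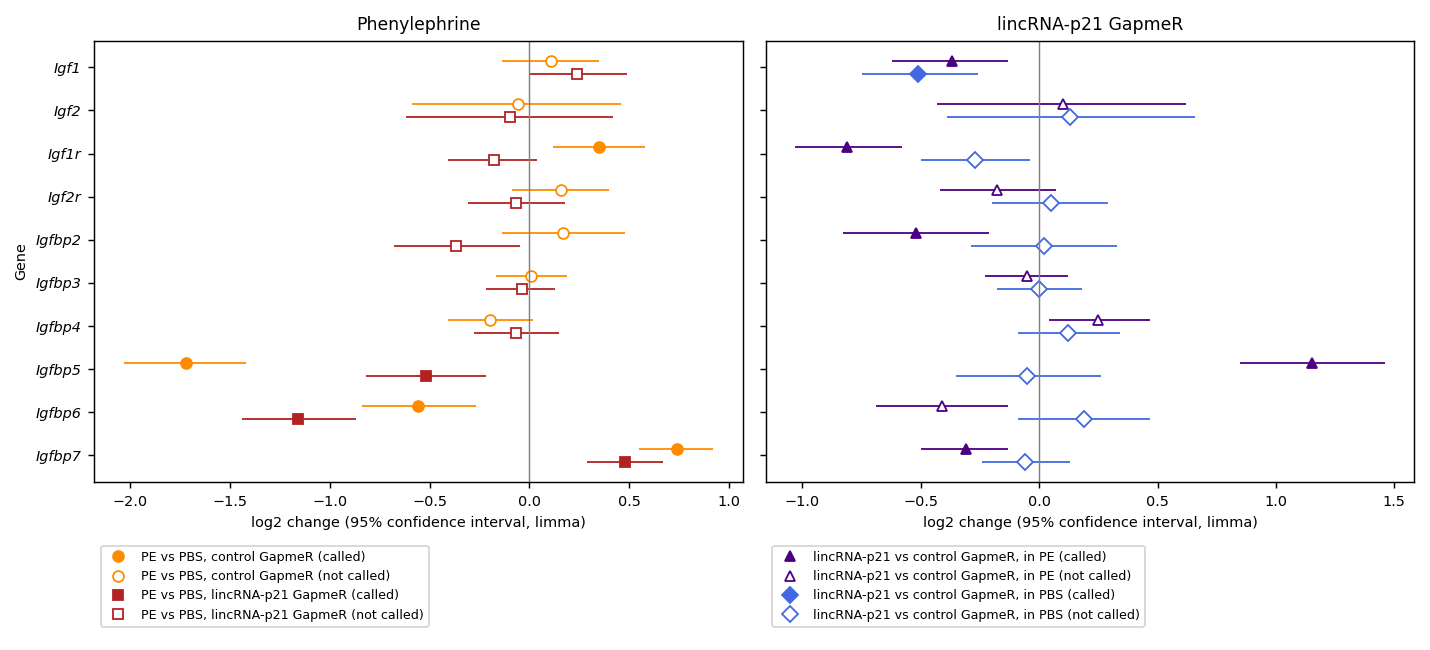
Log2 changes (limma, on log2 of the value plus 1) of the 10 IGF genes with 95% confidence intervals for PE against PBS with each GapmeR and for the lincRNA-p21 against the control GapmeR in each medium. Filled symbols have an adjusted p below 0.05, and Igfbp5 stands at -1.72 for PE with the control GapmeR and at 1.15 for the knockdown within PE.

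Some markers also differed between the GapmeRs within PE, where 11.7% of all genes were called, 4.57% higher and 7.14% lower. Summed cardiomyocyte markers were 590289 to 703297 normalised reads in PE knockdown libraries, against 739854 to 1022690 in PE control libraries, without overlap, and 1 of 6 was called, Ryr2, lower. The sum is led by Myh6, which was not called, and the libraries of Tnnt2, Tnni3 and Pln overlapped between the groups. Ryr2 spans 553844 bases, and of genes spanning at least 200 kb 65.3% were called lower here. Whether its change goes with its length was not tested. Of 7 fibroblast markers 2 were called lower (summed 22344 to 25321 normalised reads in PE knockdown, 27927 to 31509 in PE control libraries), and so were 2 of 6 endothelial markers (4320 to 5295 in PE knockdown, 5192 to 5718 in PE control libraries). Of 6 smooth muscle and pericyte markers 2 were called lower, Pdgfrb and Acta2, which leads the sum. The sums were 38267 to 41670 in PE knockdown and 53371 to 55180 in PE control libraries. None of 7 leukocyte markers was called, with sums of 1722 to 2421 in PE knockdown and 1852 to 2135 in PE control libraries. Their part in the changes of the IGF genes was not tested.

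Without PE, the knockdown moved 1 of the 10 genes past the threshold. Igf1 was lower in PBS knockdown cells, and no gene was higher, where 4.57% of all genes were called, 1.36% higher and 3.21% lower. After rescaling to the same total the shares were 2.21% higher and 2.30% lower. The median log2 change was 0.01 over the 10 genes and 0.00 over all genes tested. Of the 32 markers of all cell types, 1 was called, a leukocyte marker that was higher. Summed cardiomyocyte markers did not overlap, at 418321 to 458751 normalised reads in PBS knockdown libraries, against 512681 to 619510 in PBS control libraries. The sum is led by Myh6, with means of 252906 in PBS knockdown and 323169 in PBS control cells. No cardiomyocyte marker was called, and the libraries of Tnnt2, Ryr2, Tnni3 and Pln overlapped between the groups. Any part of these cell types in the change of Igf1 was not tested.

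Igf1, on chromosome 10 (chr10:87858265-87937042, plus strand), had 291, 260 and 343 normalised reads in PBS knockdown libraries, against 437, 393 and 434 in PBS control libraries. The groups did not overlap, and the log2 change was -0.51 ± 0.12, a ratio of 0.707 between group means, with an adjusted p of 0.015 (limma). The call was lost without PBS control library 1 (-0.48, adjusted p = 0.076) or 3 (-0.48, adjusted p = 0.077) and in the fit on these 6 libraries alone (adjusted p = 0.10). In the main fit Igf1 was the 1 gene of the 10 called lower with the lincRNA-p21 GapmeR in both media. Its call within PE (adjusted p = 0.045, limma) was lost in 8 of 12 fits that left out 1 library. Igf1r was also lower in both media, by -0.81 in PE and -0.27 in PBS, but was not called in PBS.

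Igf1r had 2158, 3019 and 2549 normalised reads in PBS knockdown libraries, against 3014, 3177 and 3029 in PBS control libraries. The libraries overlapped, since PBS knockdown library 2 was level with the control cells. The log2 change was -0.27 ± 0.11 (adjusted p = 0.19, limma), and without that library it was -0.39 with an adjusted p of 0.020. Among the 619 genes spanning at least 200 kb, the median within PBS was -0.31 and 35.2% were called lower. The median of all 12113 genes with a mean of at least 50 was 0.01. Whether the change of Igf1r goes with its length was not tested here either. Igfbp5 had 1995, 2754 and 2375 normalised reads in PBS knockdown libraries, against 2365, 2558 and 2384 in PBS control libraries. Its libraries overlapped, with a log2 change of -0.05 ± 0.15 (95% interval -0.35 to 0.26).

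Igf2 was the most variable of the 10 genes within groups. It had 879, 545 and 484 normalised reads in PE knockdown, 661, 530 and 542 in PE control, 433, 1104 and 600 in PBS knockdown, and 570, 729 and 523 in PBS control libraries. The highest library of 3 of the groups was one of the 3 distant libraries, and the log2 changes of Igf2 had standard errors of 0.25 and passed the threshold in no comparison. Exons of Igf2 overlap those of the antisense gene Igf2os, which had a mean of 109 normalised reads over all libraries. H19, the noncoding gene linked to Igf2 and imprinted in the opposite way, had 19273, 13040 and 12163 normalised reads in PE knockdown, and 12429, 11616 and 13541 in PE control libraries. H19 had 10930, 10892 and 10710 normalised reads in PBS knockdown, and 9944, 15154 and 10149 in PBS control libraries, so its highest libraries were PE knockdown 1 and PBS control 2 but not PBS knockdown 2.

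Igfbp3 was the steadiest gene, between 1442 and 1583 normalised reads in all 12 libraries. Its log2 changes lay between -0.05 and 0.01 in the comparisons of PE with PBS and of the GapmeRs, with standard errors of 0.09, but after rescaling to the same total its change with PE in control cells was -0.15. Igf2r, with 12605 to 17491 normalised reads, passed in no comparison. The gene of the antisense noncoding RNA Airn (chr17:12741311-12860136, plus strand) overlaps part of Igf2r (chr17:12682406-12769664, minus strand), with no overlap of exons. Airn had 352 ± 69.8 normalised reads in PE knockdown and 564 ± 34.3 in PE control cells (log2 change -0.69 ± 0.16, adjusted p = 0.0071, limma), and 350 ± 91.0 in PBS knockdown and 535 ± 14.3 in PBS control cells (-0.64 ± 0.16, adjusted p = 0.025, limma).

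Whether the PE response differed between the GapmeRs was tested by the interaction. Igfbp5 was the 1 gene of the 10 that passed, and higher, where 0.0550% of all genes were called, 0.0550% higher and 0% lower, or 12 genes in all. Its PE response with the lincRNA-p21 GapmeR minus that with the control GapmeR was 1.20 ± 0.21 on the log2 scale (95% interval 0.77 to 1.63, adjusted p = 0.026, limma). The call was lost in 6 of 12 fits that left out 1 library, where the difference ran from 0.99 to 1.34: without PBS control 1 (adjusted p = 0.091), 2 (0.082) or 3 (0.078), PBS knockdown 3 (0.093), or PE control 2 (0.12) or 3 (0.092). With a replicate block it was 1.20 with an adjusted p of 0.06 (limma). In edgeR on the recovered reads the difference was 1.22 with an adjusted p of 0.016. In DESeq2 it was 1.22 with an adjusted p of 1.1e-04, where 124 of all genes were called. Without the 3 distant libraries it was 1.07 with an adjusted p of 9.6e-05 (limma). Calls over all genes then rose from 12 to 143. Leaving out libraries for their distance tends to lower the spread by construction, so this p gives no separate support.

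For the other 9 genes the interaction did not pass. Igf1r had a difference in response of -0.54 ± 0.15 (95% interval -0.86 to -0.21, adjusted p = 0.27, limma), which passed without the 3 distant libraries (-0.51, adjusted p = 0.033). Igfbp6 had one of -0.60 ± 0.19 (adjusted p = 0.35) and Igfbp2 one of -0.53 ± 0.21 (adjusted p = 0.41). Those of the rest lay between -0.26 for Igfbp7 and 0.13 for Igf1 and Igfbp4. Among the 619 genes spanning at least 200 kb the median difference in response was -0.23, against -0.03 over the 12113 better-detected genes. Whether the difference of Igf1r goes with its length was not tested.

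The rest of the IGF pathway was read from a list of 34 genes, of which 33 were tested. PE raised 9 and lowered 8 of them in control cells (median log2 change 0.06), where 25.4% of all genes were called. With the lincRNA-p21 GapmeR it raised 7 and lowered 11 (median -0.03), where 27.4% of all genes were called. The knockdown raised 2 and lowered 7 within PE (median -0.10), where 11.7% of all genes were called, and raised 2 and lowered 1 within PBS (median -0.06), where 4.57% were. None of the 33 passed for the interaction, for which 0.0550% of all genes were called. Calls of single genes of this list were not followed under the alternatives, unlike those of the 10 genes, so their stability is not known.

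All 6 genes of proteases of binding proteins and their inhibitors were called with PE in control cells, 4 higher and 2 lower, beside 25.4% of all genes. Htra1, a secreted serine protease that can cut IGFBP5, had 3598, 3651 and 3372 normalised reads in PE control libraries, against 1497, 1466 and 1491 in PBS control libraries. Its log2 change was 1.25 ± 0.09 (adjusted p = 6.4e-09, limma), and the groups were far apart. With the lincRNA-p21 GapmeR the PE change of Htra1 was 0.90 ± 0.09 (adjusted p = 6.2e-07, limma). Stc1, a stanniocalcin that inhibits PAPP-A, had means of 117 in PE control and 68.6 in PBS control cells (0.73 ± 0.20, adjusted p = 0.011, limma), and its PE change with the lincRNA-p21 GapmeR was 1.02 ± 0.20. Pappa2, a protease of IGFBP3 and IGFBP5, had means of 9.36 in PE control and 25.3 in PBS control cells, a log2 change of -1.75 ± 0.48 (adjusted p = 0.010, limma). With the lincRNA-p21 GapmeR its PE change was -0.14 ± 0.48 (adjusted p = 0.87, limma), and the difference between these PE changes, 1.60 ± 0.68, did not pass (adjusted p = 0.45, limma).

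The knockdown raised Pappa, which encodes PAPP-A, in both media. It had 303, 293 and 294 normalised reads in PE knockdown libraries, against 207, 214 and 202 in PE control libraries, and 202, 239 and 254 in PBS knockdown libraries, against 182, 161 and 138 in PBS control libraries. Neither pair of groups overlapped, and the log2 changes were 0.51 ± 0.13 in PE (adjusted p = 0.014, limma) and 0.53 ± 0.13 in PBS (adjusted p = 0.024, limma). Within PE the knockdown also raised Stc2, another inhibitor of PAPP-A (0.73 ± 0.14), and lowered Adamts1, a secreted metalloprotease (-0.67 ± 0.10).

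Among receptor adaptors, Grb14, which inhibits the insulin receptor, was lower in 4 comparisons. Its means were 846 in PE knockdown, 1340 in PE control, 2424 in PBS knockdown and 3229 in PBS control cells. PE changed it by -1.27 ± 0.09 with the control GapmeR (adjusted p = 3.3e-09, limma) and by -1.52 ± 0.09 with the lincRNA-p21 GapmeR, and the knockdown by -0.66 ± 0.09 within PE and -0.41 ± 0.09 within PBS. Irs2, a docking protein for IGF1R and the insulin receptor, had means of 1426 in PE control and 744 in PBS control cells (0.94 ± 0.13, adjusted p = 2.2e-05, limma).

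In the kinase cascade, 2 of 15 genes were called higher and 4 lower with PE in control cells, beside 12.6% and 12.8% of all genes. Pik3r1, a regulatory subunit of PI3K, had means of 1119 in PE control and 2059 in PBS control cells (-0.88 ± 0.10, adjusted p = 1.1e-06, limma). Pik3r2, another regulatory subunit, was called lower with PE under either GapmeR. It changed by -0.94 ± 0.14 with the lincRNA-p21 GapmeR and by -0.42 ± 0.14 with the control GapmeR (adjusted p = 0.028, limma). The difference between these PE changes, -0.52 ± 0.19, did not pass (adjusted p = 0.4, limma). Within PE, the knockdown lowered Foxo3, a transcription factor inhibited by AKT, with means of 1302 in PE knockdown and 2182 in PE control cells (-0.74 ± 0.11, adjusted p = 1.2e-04, limma), and Mtor, a growth-promoting kinase, with means of 1611 in PE knockdown and 2470 in PE control cells (-0.61 ± 0.11). Foxo3 also changed with PE in knockdown cells, by -0.83 ± 0.11. Its PE change with the control GapmeR, -0.18 ± 0.11, was not called (adjusted p = 0.26, limma). The difference between these PE changes, -0.65 ± 0.16, did not pass (adjusted p = 0.15, limma). Of the rest of the list, Igf2bp1, which binds Igf2 RNA, was higher with the knockdown in PBS (0.40 ± 0.11, adjusted p = 0.039, limma). Igfals, a carrier of IGF complexes, was called lower with PE in knockdown cells. Its means were 0.662 normalised reads in PE knockdown and 5.15 in PBS knockdown cells. With the control GapmeR its PE change of -0.96 ± 0.52 was not called (adjusted p = 0.2, limma), and the interaction did not pass (adjusted p = 0.65, limma).

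**Figure D4:**
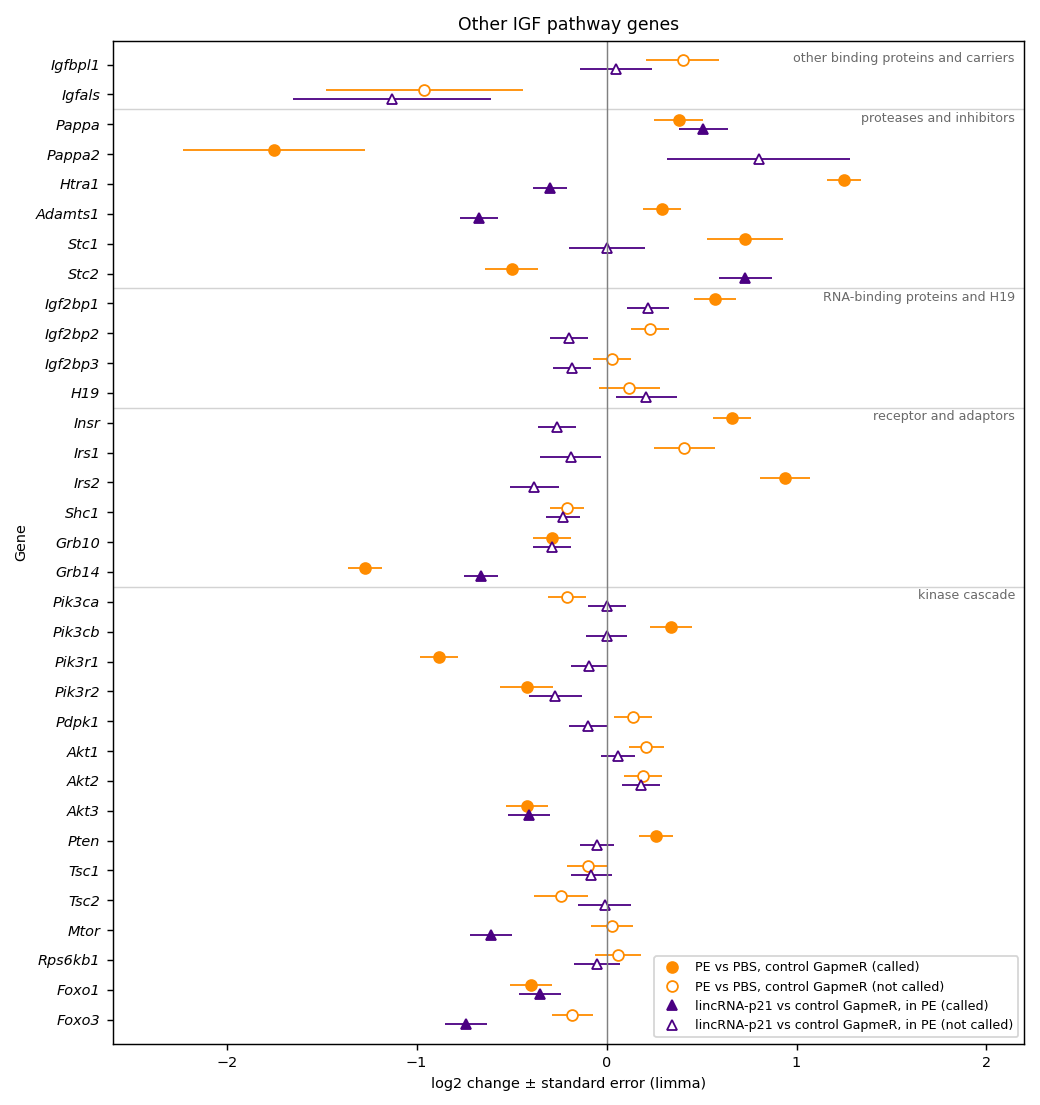
Log2 changes (limma) with standard errors of the 33 tested genes of the wider IGF pathway, for PE against PBS with the control GapmeR and for the lincRNA-p21 against the control GapmeR within PE. Filled symbols have an adjusted p below 0.05, and Htra1 at 1.25 and Pappa2 at -1.75 mark the extremes with PE.

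Genes most like the binding proteins with the widest range were found by the Pearson correlation of log2(value + 1) over the 12 libraries, among 12112 genes, as a description. For Igfbp5 these were Sept3 (r = 0.972), Prune1 (r = 0.961) and Cln6 (r = 0.961). Sept3, which encodes a septin, had means of 176 in PE knockdown, 106 in PE control, 237 in PBS knockdown and 225 in PBS control cells. For Igfbp6 they were Mvd (r = 0.976), Tubb2b (r = 0.968) and Mccc2 (r = 0.967). Mvd, an enzyme of cholesterol synthesis, had means of 619 in PE knockdown, 770 in PE control, 1730 in PBS knockdown and 1595 in PBS control cells. The libraries shared by these correlations include the 3 distant ones.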

How the data were processed

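Per the labels, polyadenylated RNA of 12 libraries was extracted with TRIzol and sequenced as paired-end reads. The submitters' processing notes name STAR, SAMtools, featureCounts and the build GRCm38.p6. The sources used here do not give software versions, annotation release or strandedness. For each gene, the authors deposited a signal, the read count divided by 1 size factor per library (0.921 to 1.11). Undoing that division gave whole reads for 100% of values (tolerance 0.001). The table has 0 columns of no sample, and no replicate repeated another (chi-square per degree of freedom 2.42 to 53.5).

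Genes were named by matching identifiers without version to GENCODE M21 (52083 of 55416; 35 matched with version). Genes with a mean of at least 1 (21799) were fitted as log2(value + 1) with limma 3.58.1 (R 4.3.3, trended prior, 4 group means, all libraries), two-sided, with Benjamini-Hochberg adjustment at 0.05, in 5 comparisons, and tested on simulated data. Alternatives were a pseudocount of 0.1, no filter or a CPM filter, edgeR 4.0.16 and DESeq2 1.42.0 on recovered reads, rescaling to the same total, a replicate block, 6 libraries, and leaving libraries out. Single genes were followed under them for the 10 genes only. For the pathway list only the count of calls after rescaling was taken. The members and lists were chosen with earlier results of these data known. Named were all 10 genes, Trp53cor1, up to 6 called pathway genes per comparison by size of change, and the 3 genes most like each of the 2 widest-ranging members. Polr2b, Airn, H19 and Igf2os were added after their values were seen. Deviations of same-numbered libraries from their group means correlated at r from -0.435 to 0.409, which cannot decide whether they were paired.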

Additional observations from a re-analysis of the deposited data

Results flagged for a closer look

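The PE response of Igfbp5 differed between the GapmeRs: the log2 change with PE was -0.52 ± 0.15 with the lincRNA-p21 GapmeR and -1.72 ± 0.15 with the control GapmeR, a difference of 1.20 ± 0.21 (adjusted p = 0.026 for the interaction, limma). It was picked out because the test of the difference itself passed the threshold, which 12 of 21799 genes did. The adjusted p ran from 0.012 to 0.12 when single libraries were left out, and the call was lost in 6 of those 12 fits. Within PBS the GapmeRs differed by -0.05 ± 0.15, and within PE by 1.15 ± 0.15.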

How the results depend on the processing

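Of the alternative values of single genes, 946 kept their direction and their side of the threshold, 39 lost a call, 16 gained one and 39 changed sign. The cause of these reversals and losses was not tested in any setting. In many settings the direction could not change. Another filter, the replicate block, the 6 libraries alone, or leaving out a library of a group not compared keeps the log2 change of the main fit. The 946 are therefore not a count of independent checks. Counts of the 10 genes called were 5 for PE with the lincRNA-p21 GapmeR after rescaling to the same total, and for the knockdown within PE 3 without a filter, 3 after rescaling and 2 to 7 on leaving out single libraries. For the knockdown within PBS they were 0 with 6 libraries, 2 without the 3 distant libraries and 0 to 2 on leaving out single libraries, and for the interaction 2 without the distant libraries and 0 to 1 on leaving out single libraries.

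Deviations of same-numbered libraries from their group means correlated from -0.435 to 0.409. With 3 libraries per group this cannot decide whether replicate numbers pair the libraries, which the labels do not state. With a replicate block the interaction called 0 of the 10 genes (Igfbp5 1.20, adjusted p = 0.06), and Igfbp7 within PE was -0.31 (adjusted p = 0.051).

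Over all genes, the knockdown within PE called 2553, against 4672 without the distant libraries and 1671 at the lowest without single libraries. Within PBS it called 997, against 392 with 6 libraries, 1865 without the distant libraries and 510 to 1181 without single libraries. The interaction called 12, against 124 with DESeq2, 143 without the distant libraries and 3 to 22 without single libraries. Dividing by the longest transcript gave levels per kilobase in PBS control cells of 59.8 for Igf1, 129 for Igf2, 269 for Igf1r, 151 for Igfbp2, 625 for Igfbp3 and 290 for Igfbp4.

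These values changed sign. Rescaling gave -0.05 for Igf1, 0.00 for Igf2r and -0.15 for Igfbp3 with PE in control cells, 0.03 for Igfbp3 with the knockdown in PE, and 0.02 for Igfbp5 and 0.01 for Igfbp7 with the knockdown in PBS. Without the distant libraries, Igf2 had 0.07 and 0.01 with PE (control and lincRNA-p21 GapmeR) and -0.16 and -0.10 with the knockdown (PE and PBS). Igf2r had 0.08 and Igfbp4 0.01 with PE in knockdown cells, and -0.14 and 0.00 with the knockdown in PBS. Igfbp3 with the knockdown in PBS had -0.01 in edgeR and 0.00 in DESeq2. Single libraries left out gave, with PE in control cells, -0.17 to 0.07 for Igf2 and -0.02 to 0.04 for Igfbp3, and in knockdown cells -0.40 to 0.27 for Igf2, -0.18 to 0.06 for Igf2r and -0.12 to 0.03 for Igfbp4. They gave -0.16 to 0.27 for Igf2 with the knockdown in PE. In PBS they gave -0.24 to 0.44 for Igf2, -0.08 to 0.16 for Igf2r, -0.06 to 0.08 for Igfbp2, -0.03 to 0.03 for Igfbp3 and -0.16 to 0.07 for Igfbp5, and for the interaction of Igf2 -0.34 to 0.33. With 3 libraries per group, only differences larger than their spread could be called.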
